A study of Mus musculus with 4 samples.

Results

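The 10 genes described here encode the neuropeptides and calcium-binding proteins by which classes of cortical inhibitory neurons (IN) are told apart. They comprise the neuropeptide genes Sst, Npy, Vip, Cck, Tac1 and Penk and the calcium-binding protein genes Calb1, Calb2, Pvalb and Scgn. They were chosen by name, and all 10 were found by their Ensembl identifiers among the 55421 genes listed for each library. PFC tissue of wild-type C57BL/6 mice at P0 was dispersed into cells and kept for 10 days in neurobasal medium with B27, either with FGF2 at 5 ng/mL or with no FGF2. Total RNA of the mixed cultures was sequenced without sorting, giving 2 libraries with FGF2 and 2 libraries without FGF2. The replicates may be technical. The study's methods give biological replicates for some human samples and technical replicates for the others, without naming the mouse cultures. The labels do not settle it. If the replicates are technical, the p-values cover technical spread only. The total counts on genes lay between 9166432 and 10799886 per library.

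Cortical IN release GABA, and most of them also carry a peptide or a calcium-binding protein that marks their class. Neuropeptides are made as precursors, cut by proteases in the secretory pathway, stored in dense-core vesicles and released to act on G-protein-coupled receptors. Sst and Pvalb mark the main classes that arise in the medial ganglionic eminence of the embryonic forebrain, whereas Vip and many Calb2 and Cck cells arise in the caudal ganglionic eminence. The calcium-binding proteins bind calcium through EF-hand domains and buffer or sense it in the cytosol. These markers are not exclusive to IN, since Cck, Calb1 and Penk are also transcribed in some excitatory neurons (EN).

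The cAMP response element, bound by the factor CREB, was first described in the promoter of Sst, and the 250 bases before the transcription start are therefore shown for the 3 most abundant neuropeptide genes and for Vip. The full element is TGACGTCA, and the core searched for on both strands is TGACG, which the full element holds once on each strand. Capitals mark every match of the core on either strand. The sequences are from RefSeq on GRCm38.p6, read 5′ to 3′ in the direction of transcription, at chr16:23890845-23891094 on the minus strand for Sst, chr6:49822460-49822709 on the plus strand for Npy, chr10:5638968-5639217 on the plus strand for Vip and chr9:121495695-121495944 on the minus strand for Cck.
Sst: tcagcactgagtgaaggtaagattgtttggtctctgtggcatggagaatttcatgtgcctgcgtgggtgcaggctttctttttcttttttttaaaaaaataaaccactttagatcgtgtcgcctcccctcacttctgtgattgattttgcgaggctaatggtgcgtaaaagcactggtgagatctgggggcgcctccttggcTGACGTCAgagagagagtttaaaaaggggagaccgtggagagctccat
Npy: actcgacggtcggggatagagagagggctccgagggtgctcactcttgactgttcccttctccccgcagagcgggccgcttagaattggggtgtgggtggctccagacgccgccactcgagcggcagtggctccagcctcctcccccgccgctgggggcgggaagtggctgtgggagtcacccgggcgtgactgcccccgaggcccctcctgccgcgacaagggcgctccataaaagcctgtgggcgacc
Vip: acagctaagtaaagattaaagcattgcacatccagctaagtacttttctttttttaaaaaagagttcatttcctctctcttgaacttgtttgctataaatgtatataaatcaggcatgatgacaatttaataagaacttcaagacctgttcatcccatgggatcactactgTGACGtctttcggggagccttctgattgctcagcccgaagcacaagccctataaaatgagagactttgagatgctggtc
Cck: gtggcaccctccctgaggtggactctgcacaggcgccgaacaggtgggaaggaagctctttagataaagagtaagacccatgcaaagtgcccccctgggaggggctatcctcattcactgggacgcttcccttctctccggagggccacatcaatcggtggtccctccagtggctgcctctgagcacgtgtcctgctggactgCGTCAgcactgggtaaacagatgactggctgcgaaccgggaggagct

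The promoter table matched 7 of the 10 genes, and Penk, Calb1 and Calb2 were not analysed in this respect. For Sst, Tac1 and 1 of the 2 starts of Pvalb, the RefSeq start lies inside the gene as GENCODE bounds it. Part of the windows of Sst and Tac1, with the marked element of Sst, therefore falls within the gene coordinates given further on. The whole window of that Pvalb start falls within the coordinates of Pvalb. The full element was present in 1 of the 7 genes, Sst, where it ended 40 bases before the start. The core was present in 4 of the 7 genes, which were Sst, Vip, Cck and Tac1, and it ended 74 bases before the start in Vip and 42 bases before it in Cck. No match was found in the windows of Npy, Pvalb and Scgn. Over the 32851 promoter windows of the same length in the table, 1.55% held the full element and 17.8% held the core. A match describes letters only and does not show that a factor was bound in these cultures.

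All 10 genes passed the expression filter, so every one was tested among the 17144 genes that passed it. Tac1, with 3 and 1 counts with FGF2, passed it only through its libraries without FGF2, where it was higher. Its lower call is therefore not independent of the filter. Levels are given as CPM, the count scaled to library size with TMM factors. Fold changes are FGF2 over no FGF2 on the log2 scale, negative where FGF2 was lower. At an adjusted p below 0.05 (edgeR's quasi-likelihood method, adjusted by Benjamini-Hochberg over all genes tested), 8 of the 10 genes were lower with FGF2 and 0 were higher. The genes that did not pass were Vip and Cck. With DESeq2, 5 of the 10 passed, all lower, and Tac1, Pvalb and Scgn did not. Over all genes tested, 40.5% passed, with 19.9% lower and 20.7% higher. The median log2 fold change was -1.10 over the 6 neuropeptide genes and -1.24 over the 4 calcium-binding protein genes, beside a median of -0.0010 over all genes tested. The libraries of the groups did not overlap for these 8 genes, each lower with FGF2, nor for Vip, which was higher. Such a separation was found for 33.4% of all genes tested in the lower and 33.6% in the higher direction.

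**Figure D1:**
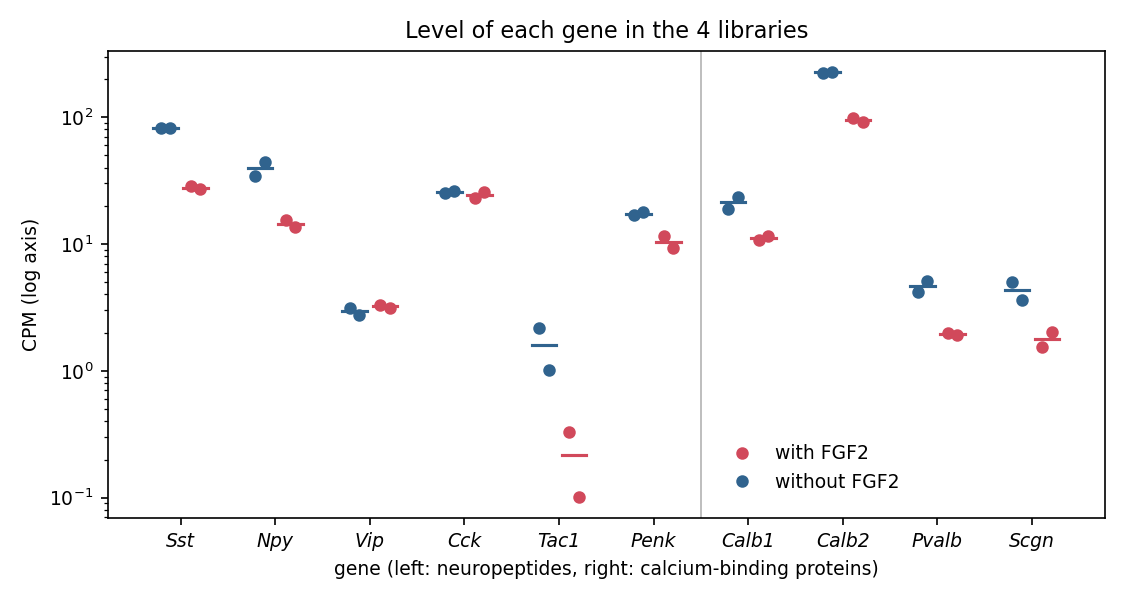
Level of each of the 10 genes in CPM on a log axis. Each point is 1 of the 2 libraries with FGF2 (red) or 2 libraries without FGF2 (blue), and each short line is the mean of 2 libraries. The points of Vip and Cck lie close together in both groups, the other genes lie lower with FGF2, and the points of Tac1 with FGF2 rest on 3 counts and 1 count.

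Among the neuropeptides, Sst changed with the smallest spread between libraries. Sst encodes somatostatin, an inhibitory peptide of IN that contact dendrites, and lies on chromosome 16 of mm10 from 23889573 to 23890958. Its level was 82.2 and 82.8 CPM in the libraries without FGF2 and 28.4 and 27.1 CPM in the libraries with FGF2. The level without FGF2 was therefore 2.97 times that with FGF2. The log2 fold change of Sst was -1.57 (standard error, SE, 0.09, edgeR adjusted p = 1.7e-65), and 0.764% of all genes tested had a value at or below it.

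Npy encodes neuropeptide Y and lies on chromosome 6 from 49822710 to 49829507. Its level was 34.4 and 44.7 CPM without FGF2 and 15.5 and 13.5 CPM with FGF2. The libraries without FGF2 differed more from each other for Npy than for Sst, but both were above both libraries with FGF2. The log2 fold change was -1.45 (SE 0.12, edgeR adjusted p = 8.0e-30), and it was -1.25 when replicate 2 without FGF2 was left out and -1.63 when replicate 1 was. Penk encodes the precursor of the enkephalins, opioid peptides, and lies on chromosome 4 from 4133531 to 4138819. Its level was 16.8 and 17.9 CPM without FGF2 and 11.5 and 9.35 CPM with FGF2, a log2 fold change of -0.74 (SE 0.16, edgeR adjusted p = 2.8e-05). A stretch of 233 exonic bases of Penk overlaps A830012C17Rik on the opposite strand, to which between 1 and 5 counts per library were assigned.

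Tac1, the gene of the substance P precursor, was close to the limit of detection. It lies on chromosome 6 from 7554879 to 7565834 and had 23 and 11 counts without FGF2 and 3 and 1 counts with FGF2. Per library total the pooled count was 7.63 times higher without FGF2, with an exact 95% interval from 2.72 to 29.6 that covers counting error only. Its edgeR adjusted p-value was 6.6e-04, which rose to 0.056 with DESeq2, to 0.053 without replicate 2 with FGF2 and to 0.16 without replicate 1 without FGF2. Thus the direction held in these fits, and the call did not.

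Vip and Cck did not pass the test, in either direction. Vip encodes vasoactive intestinal peptide, carried by IN that mostly contact other IN, and lies on chromosome 10 from 5639218 to 5647617. It had 33 and 30 counts without FGF2 and 30 and 31 counts with FGF2, which gave 3.14 and 2.77 CPM and 3.31 and 3.15 CPM. The log2 fold change of Vip was 0.13, with a 95% interval from -0.56 to 0.81 (edgeR adjusted p = 0.81), so the depth allows a change of moderate size in either direction. Cck encodes cholecystokinin and lies on chromosome 9 from 121489824 to 121495694. Its level was 25.4 and 26.0 CPM without FGF2 and 23.0 and 25.5 CPM with FGF2, and the groups overlapped. With 209 to 282 counts per library the interval was narrower than for Vip, from -0.32 to 0.16 around an estimate of -0.08 on the log2 scale (edgeR adjusted p = 0.64). The interval of Sst, from -1.75 to -1.39, lay below those of both genes.

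The counts of the peptides were also set against each other within each library. For each count of Vip there were 26.2 and 29.9 counts of Sst without FGF2, and 8.60 and 8.61 with FGF2. For each count of Cck there were 3.24 and 3.18 counts of Sst without FGF2, and 1.23 and 1.06 with FGF2. In contrast, the counts of Sst per count of Npy overlapped between the groups, with 2.39 and 1.85 without FGF2 and 1.83 and 2.01 with FGF2. Of 7 such ratios compared between the groups, Sst over Vip, Sst over Cck, Npy over Vip, Npy over Cck and Calb2 over Calb1 did not overlap (exact permutation test, two-sided, p = 0.333 for each and 0.467 after adjustment over the 7). With 2 libraries against 2 this is the smallest p that the test allows, so it could not have passed the threshold, and the ratios are given as a description. Scaled by exonic length, Sst made up 55.3% and 50.8% of the summed level of the 6 peptide transcripts without FGF2 and 42.6% and 42.9% with FGF2. The share of Cck was 9.45% and 8.84% without FGF2 and 19.1% and 22.3% with FGF2. The summed CPM of the 6 genes was 164 and 175 without FGF2 and 82.1 and 78.8 with FGF2.

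**Figure D2:**
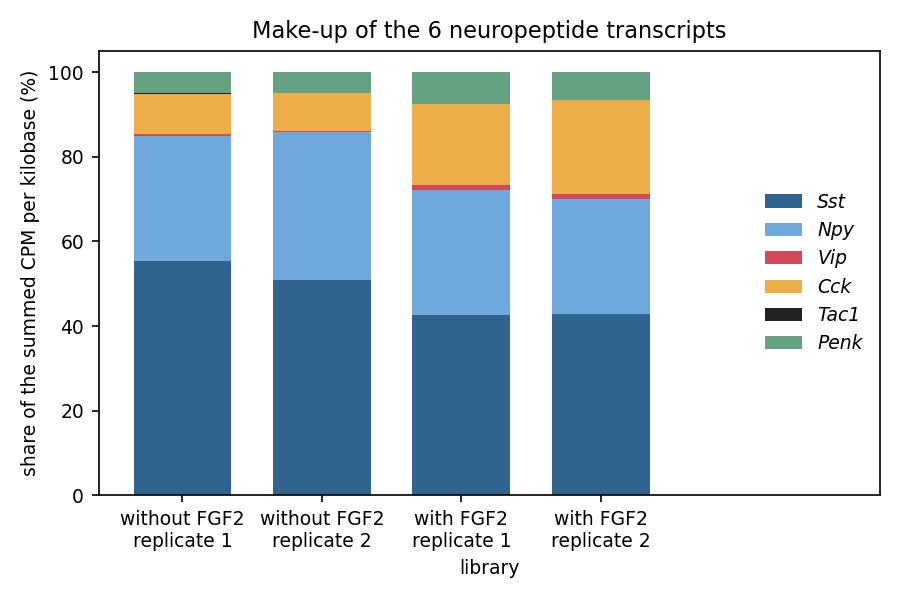
Share of each neuropeptide gene in the summed CPM per kilobase of exonic length of the 6 neuropeptide genes, in percent, for the 4 libraries. The Cck segment is between 8.84% and 9.45% without FGF2 and between 19.1% and 22.3% with FGF2, while the Sst segment is smaller with FGF2.

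All 4 calcium-binding protein genes were lower with FGF2, and their log2 fold changes lay between -1.26 and -0.94. Calb2 encodes calretinin and was the most abundant of the 10 genes per length in both groups. It lies on chromosome 8 from 110137502 to 110168210 and had 223 and 227 CPM without FGF2 and 99.3 and 91.5 CPM with FGF2. Both libraries without FGF2 were thus more than 2 times above those with FGF2. Its log2 fold change was -1.24 (SE 0.06, edgeR adjusted p = 1.7e-105). Calb1 encodes calbindin and lies on chromosome 4 from 15881264 to 15908064. Its level was 19.0 and 23.5 CPM without FGF2 and 10.7 and 11.5 CPM with FGF2, and its log2 fold change was -0.94 (SE 0.15, edgeR adjusted p = 7.5e-09).

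Pvalb and Scgn were measured at low levels. Pvalb encodes parvalbumin, the buffer of fast-spiking basket and chandelier cells, and lies on chromosome 15 from 78191114 to 78206400. It had 44 and 55 counts without FGF2 and 18 and 19 with FGF2, a log2 fold change of -1.24 (SE 0.35, edgeR adjusted p = 0.0015). Scgn encodes secretagogin, a calcium sensor, and lies on chromosome 13 from 23953456 to 23991214. It had 53 and 39 counts without FGF2 and 14 and 20 with FGF2, a log2 fold change of -1.26 (SE 0.36, edgeR adjusted p = 0.0020). The libraries of the groups did not overlap for either gene. With DESeq2 their adjusted p-values were 0.072 and 0.085. Pvalb was at 0.053 in edgeR without replicate 2 without FGF2, and Scgn at 0.11 without replicate 1 without FGF2. Calb2 took between 90.5% and 92.0% of the length-scaled sum of the 4 genes in every library. The summed CPM of the 4 genes was 251 and 259 without FGF2 and 114 and 107 with FGF2.

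Per kilobase of exonic length, the 5 most abundant genes stood in the same order in both groups, namely Calb2, Sst, Npy, Cck and Penk. Without FGF2 these means were 129, 114, 69.8, 19.7 and 10.6 CPM per kilobase, and with FGF2 they were 54.7, 38.5, 25.7, 18.6 and 6.37. No neighbours among these 5 genes had overlapping libraries. Pvalb and Calb1 overlapped without FGF2, at 4.45 ± 0.606 and 4.38 ± 0.646 CPM per kilobase (SD, n = 2). Scgn and Vip overlapped with FGF2, at 1.10 ± 0.214 and 0.949 ± 0.0321 (SD, n = 2). Tac1 had the lowest level in both groups, at 0.471 ± 0.244 without FGF2 and 0.0636 ± 0.0476 with FGF2 (SD, n = 2).

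The cultures were measured in bulk, and fewer cells of a type and less RNA per cell cannot be told apart. Markers of the other cells moved as well. The summed level of 10 astrocyte markers was between 12600 and 12800 CPM with FGF2 and between 7740 and 7790 without FGF2, with 8 of 10 higher and 1 lower. For 10 oligodendrocyte lineage markers the sum was between 1860 and 1870 CPM with FGF2 and between 560 and 569 without FGF2, with 9 of 9 tested genes higher and Mog below the filter. The 10 pan-neuronal markers summed to between 2900 and 2960 CPM with FGF2 and between 4010 and 4030 without FGF2, with 8 lower and 1 higher. The part of these shifts in the change of the peptide genes was not tested. Among the remaining lists, 4 of 9 EN markers were lower, 3 of 4 tested microglial markers and 3 of 4 tested endothelial and mural markers were higher, and 2 of 4 tested meningeal fibroblast markers were lower. Over all genes tested, 19.9% were lower and 20.7% were higher. The EN markers summed to between 498 and 521 CPM with FGF2 and between 634 and 662 without FGF2. The microglial sum was between 16.2 and 18.5 CPM with FGF2 and between 7.80 and 8.68 without FGF2, and the endothelial and mural sum was between 57.1 and 61.5 with FGF2 and between 32.5 and 34.2 without FGF2. The fibroblast sum was between 6.91 and 8.49 CPM with FGF2 and between 18.8 and 19.8 without FGF2, and the endothelial marker Cldn5 was at 0 counts in all 4 libraries. By log2 fold change, the astrocyte genes Gfap and Slc1a3 were at 1.06 and 0.48, the myelin gene Mbp at 2.18, the neuronal genes Map2, Stmn2 and Tubb3 at -0.32, -0.47 and -1.10, and the EN genes Camk2a and Neurod2 at -0.45 and -1.07, all past the edgeR threshold. The microglial gene Csf1r was at 1.43, the mural and endothelial genes Pdgfrb, Rgs5 and Flt1 at 0.73, 1.89 and 2.71, and the collagen genes Col1a1 and Col1a2 at -2.18 and -1.73, again past the threshold. Of the endothelial and mural list, Pecam1 did not pass (-0.16, edgeR adjusted p = 0.81), and Cdh5 and Kcnj8 were below the filter. Flt1 had 6 and 9 counts without FGF2 and passed the filter only through its libraries with FGF2. Col1a2 had 19 and 9 counts with FGF2, and these libraries alone would not have passed the filter. The lower call of Col1a2 is therefore not independent of the filter. Pdgfrb alone had 49.2 and 46.6 CPM with FGF2, most of the sum of that list. C1qb of microglia was at 0.84 (edgeR adjusted p = 0.028), a call lost with DESeq2 (adjusted p = 0.25) and with any 1 library left out (edgeR adjusted p from 0.068 to 0.20).

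To compare the genes with the GABAergic cells as a whole, each library was also scaled to its summed counts of Gad1 and Gad2, the GABA synthesis enzymes, which were 7024 and 7399 without FGF2 and 3703 and 4247 with FGF2. Gad1 had 426 ± 11.5 CPM without FGF2 and 268 ± 12.8 with FGF2, and Gad2 had 250 ± 0.991 and 152 ± 4.01 (SD, n = 2). On this scale the median of all genes tested moved to 0.69 on the log2 scale, and 75.3% of them passed the adjusted threshold, with 1.25% lower and 74.1% higher. Of the 10 genes, 4 were lower with FGF2 per GABA synthesis count, namely Sst, Npy, Tac1 and Calb2, and 2 were higher, namely Vip and Cck. The scale does not show that the RNA of any of the 10 genes came from GABAergic cells.

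For each 1000 counts of Gad1 and Gad2 there were 123 and 121 counts of Sst without FGF2 and 69.7 and 62.9 with FGF2. This gave a log2 difference of -0.88 (SE 0.10, edgeR adjusted p = 7.2e-17). Npy had 51.4 and 65.4 counts per 1000 without FGF2 and 38.1 and 31.3 with FGF2, a log2 difference of -0.76 (edgeR adjusted p = 4.2e-08). Calb2 had 333 and 332 counts per 1000 without FGF2 and 243 and 212 with FGF2, a log2 difference of -0.55 (edgeR adjusted p = 7.6e-13). Thus the RNA of these 3 genes fell by more than that of the GABA synthesis enzymes. Tac1 had a log2 difference of -2.18 (edgeR adjusted p = 0.0078), which was -1.51 (edgeR adjusted p = 0.15) without replicate 1 without FGF2 and -1.52 (edgeR adjusted p = 0.12) without replicate 2 with FGF2.

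Cck had 38 and 38.1 counts per 1000 without FGF2 and 56.4 and 59.1 with FGF2, a log2 difference of 0.60 (SE 0.13, edgeR adjusted p = 8.1e-06). Vip had 4.70 and 4.05 counts per 1000 without FGF2 and 8.10 and 7.30 with FGF2, a log2 difference of 0.81 (SE 0.35, edgeR adjusted p = 0.029). The call of Vip was lost when replicate 1 with FGF2 or either replicate without FGF2 was left out, with log2 differences of 0.74, 0.92 and 0.71 (edgeR adjusted p = 0.10, 0.056 and 0.14). The other genes did not pass on this scale. Penk was at -0.06 (95% interval from -0.39 to 0.28) and Calb1 at -0.25 (from -0.57 to 0.06), while Pvalb was at -0.56 (from -1.25 to 0.14) and Scgn at -0.58 (from -1.31 to 0.15).

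The reference chosen for this scale mattered for several genes. Slc32a1, the gene of the vesicular GABA transporter, was itself lower than Gad1 and Gad2, with 82.1 and 78.4 counts per 1000 without FGF2 and 57.5 and 50.4 with FGF2 (log2 difference -0.58, edgeR adjusted p = 1.4e-06). Taking Slc32a1 alone as the reference therefore raised the value of every gene by about this difference, by construction. Sst and Tac1 stayed lower, at -0.31 and -1.62 (edgeR adjusted p = 0.0066 and 0.049), whereas Npy was at -0.19 (edgeR adjusted p = 0.20) and Calb2 at 0.026 (edgeR adjusted p = 0.77). Cck and Vip stayed higher, at 1.18 and 1.39 (edgeR adjusted p = 7.0e-18 and 1.3e-04), and Penk was higher at 0.52 (edgeR adjusted p = 0.0041). Slc32a1 was itself at -1.26 on the TMM scale, so a gene with no change there would be raised by about that amount here. Cck and Vip did not pass on the TMM scale, so these values do not show a rise of their RNA.

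**Figure D3:**
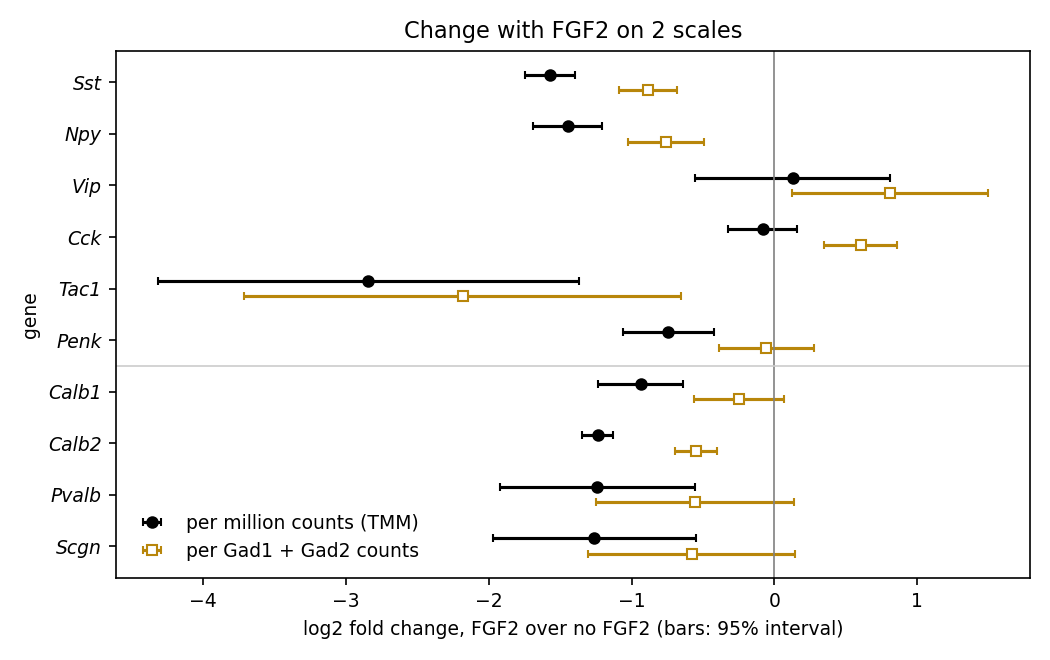
Log2 fold change of each of the 10 genes, FGF2 over no FGF2, with 95% intervals from edgeR. Filled circles are scaled to library size with TMM, and open squares are scaled to the counts of Gad1 and Gad2. The circles of 8 genes lie left of 0 with intervals that leave 0 out, and the squares of Vip and Cck lie right of 0.

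The machinery that makes and releases neuropeptides did not move as a block. Of 15 genes for peptide processing and dense-core vesicles, 7 were lower, 4 were higher and 4 did not pass, with a median log2 fold change of -0.18. For this list and those that follow, the shares over all genes tested were 19.9% lower and 20.7% higher. Cpe, a carboxypeptidase that trims cut peptides, had 1120 ± 4.09 CPM without FGF2 and 1150 ± 69.5 with FGF2 (SD, n = 2, edgeR adjusted p = 0.30), and it passed without replicate 1 with FGF2 (0.10 on the log2 scale, edgeR adjusted p = 0.0069). Scg3, a granin of the vesicle membrane, rose by 0.38 and Vgf, a secreted granin, rose by 0.76 on the log2 scale (edgeR adjusted p = 2.0e-16 and 1.6e-06). In contrast, Pcsk2, a convertase that cuts peptide precursors, fell by 0.43 on the log2 scale (edgeR adjusted p = 8.3e-07).

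Of 17 receptor genes for the 6 peptides, 13 passed the expression filter, of which 4 were lower, 1 was higher and 8 did not pass the test. In either direction this is near the 40.5% of all genes tested that passed. Npy2r fell by 1.80, the substance P receptor gene Tacr1 fell by 1.15, Cckbr fell by 1.02 and Sstr1 fell by 0.61 on the log2 scale (edgeR adjusted p = 1.2e-04, 2.6e-10, 3.7e-05 and 0.027). Npy2r had 12 and 9 counts with FGF2, and these libraries alone would not have passed the expression filter. The lower call of Npy2r is therefore not independent of the filter. The call of Sstr1 was lost with DESeq2 (adjusted p = 0.26) and in edgeR without replicate 2 with FGF2 (0.14) or without either replicate without FGF2 (0.057 and 0.22). The receptor gene that rose was Vipr2, at 14.1 ± 1.16 CPM without FGF2 and 25.3 ± 0.0934 with FGF2 (SD, n = 2), which is 0.84 on the log2 scale (edgeR adjusted p = 1.1e-08). Npy1r had 17 ± 3.08 CPM without FGF2 and 19.6 ± 0.975 with FGF2 (SD, n = 2, edgeR adjusted p = 0.25). Sstr5 and Cckar had 0 counts in all 4 libraries, and 3 counts would be between 0.277 and 0.331 CPM.

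Most other neuropeptide precursors were scarce. Of 12 listed genes 9 were tested, of which Pdyn, the precursor of the dynorphins, was lower and Adcyap1, the precursor of PACAP, was higher. This is below the 40.5% of all genes tested that passed. Pdyn had 6.61 ± 0.472 CPM without FGF2 and 1.94 ± 0.413 with FGF2, and Adcyap1 had 1.64 ± 0.0315 and 4.11 ± 0.664 (SD, n = 2, edgeR adjusted p = 2.1e-07 and 0.0019). With DESeq2 the adjusted p of Adcyap1 was 0.074. Pnoc, the nociceptin precursor, was at -0.74 on the log2 scale (edgeR adjusted p = 0.063), and it passed without replicate 1 with FGF2 (-1.07, edgeR adjusted p = 0.030). Of 14 other EF-hand proteins of neurons, 12 were lower and 1 was higher, with a median of -0.44. Calm3, a calmodulin gene, fell by 0.29 on the log2 scale, and Hpcal1 had the largest change among those called at -0.97 (edgeR adjusted p = 3.1e-16 and 2.7e-11). The gene of this list that rose was Ncald, by 0.24 on the log2 scale (edgeR adjusted p = 9.4e-06).

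Among 9 genes of GABAergic identity, 8 were lower and 1 did not pass, with a median of -0.65. Slc32a1 fell by 1.26 on the log2 scale (edgeR adjusted p = 5.2e-32). The lists for the 2 birthplaces of cortical IN were mixed. In the medial list of 6 genes, 3 were lower and 2 were higher. Lhx6, which Sst and Pvalb cells require, had 20.1 ± 2.03 CPM without FGF2 and 7.04 ± 0.176 with FGF2 (SD, n = 2), which is -1.51 on the log2 scale (edgeR adjusted p = 2.6e-17). Nkx2-1 was at -1.77 (edgeR adjusted p = 0.0070) on 5 to 25 counts per library, and its adjusted p was 0.13 with DESeq2, 0.054 without replicate 1 with FGF2 and 0.15 without replicate 2 without FGF2. Nkx2-1 also passed the filter only through its libraries without FGF2. Sox6 and Satb1, which are not restricted to IN, rose by 0.94 and 0.58 on the log2 scale (edgeR adjusted p = 1.7e-91 and 2.9e-13). In the caudal list of 6 genes, 4 were lower and 1 was higher. Adarb2 fell by 0.71 and Prox1 fell by 0.40 on the log2 scale (edgeR adjusted p = 4.8e-37 and 4.7e-06). Npas1 was at 0.89 (edgeR adjusted p = 0.028) on 16 to 42 counts, and its adjusted p was 0.27 with DESeq2, 0.16 without replicate 1 with FGF2 and 0.40 without replicate 1 without FGF2.

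Transcription of several peptide genes is known to follow neuronal activity through CREB. Of 10 genes of this pathway, 2 were lower and 5 were higher, with a median of 0.38. Fos rose by 1.82, from 15.4 ± 0.128 CPM without FGF2 to 54.7 ± 4.01 with FGF2 (SD, n = 2, edgeR adjusted p = 2.2e-56), and Bdnf rose by 0.77 on the log2 scale (edgeR adjusted p = 0.0023). The adjusted p of Bdnf was 0.10 with DESeq2 and 0.098 in edgeR without replicate 1 without FGF2. Ntrk2, the receptor gene of BDNF, which astrocytes also transcribe, rose by 0.46, and Crtc1, a coactivator of CREB, fell by 0.46 on the log2 scale (edgeR adjusted p = 4.5e-54 and 4.4e-14). Whether the changes in this list follow neuronal activity, and in which cells they arose, was not tested.

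**Figure D4:**
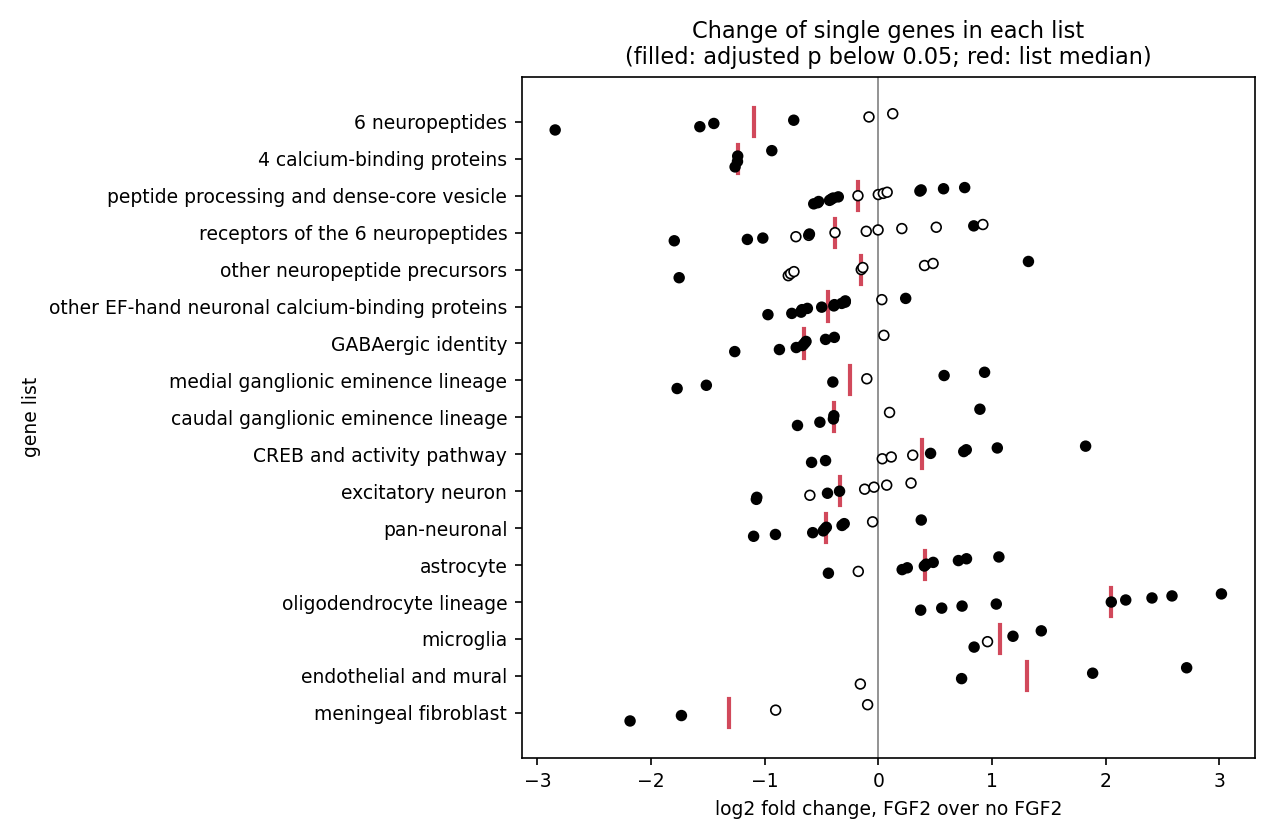
Log2 fold change, FGF2 over no FGF2, of the tested genes in the 2 groups of genes described here and in 15 other lists. Each point is a gene, filled where its adjusted p was below 0.05, and each red bar is the median of the list. The medians of the peptide and calcium-binding protein genes, at -1.10 and -1.24, lie left of those of the GABAergic identity genes at -0.65 and the pan-neuronal genes at -0.46. The median of the 4 tested meningeal fibroblast genes, at -1.32, lies further left.

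The 3 genes whose profile over the 4 libraries was closest to that of Sst were Fgf1, Pbk and Angptl2, out of 12650 genes with a mean of at least 5 CPM. Closeness was the Euclidean distance between mean-centred log2 CPM, which was 0.113, 0.132 and 0.142. Fgf1 had 88.2 and 89.3 CPM without FGF2 and 32.1 and 32.1 CPM with FGF2. These points share 4 libraries in 2 groups, so the distance is set mainly by the size of the fold change.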

How the data were processed

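RNA was measured in 4 libraries, and the groups were taken from the sample titles. The authors mapped clean reads to mm10 with HISAT2 2.1.0, kept reads with a mapping quality of at least 20 with Samtools, counted them per gene with HTSeq 0.11.2 and deposited the raw counts without normalization. The versions are from the submitters' processing notes, and the annotation release and strand setting are not given in the sources used here. Tallies that name no gene were left out of totals and tests. Reads in no feature made up 43.2% to 45.9% and ambiguous reads 1.47% to 1.76%. GENCODE M21 (mm10) gave names to 55154 of the 55421 genes.

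The main test was edgeR 4.0.16 (quasi-likelihood, TMM, robust, expression filter by group) in R 4.3.3, with Benjamini-Hochberg adjustment over all genes tested. The 95% intervals are from its moderated t distribution. In the fit scaled to Gad1 and Gad2, the library sizes were replaced by these counts, whose own error is not included. Alternatives were other scalings, filters, DESeq2 1.42.0, limma-voom (limma 3.58.1), a replicate block, other references, each library left out in turn and an adjusted p-value threshold of 0.01. The replicates differed by more than counting noise (chi-square per degree of freedom 2.28 with FGF2 and 1.76 without FGF2). Nothing says that they came from separate cultures. The 10 genes, the gene lists and the tests were chosen with earlier results of these data known. By rule, the text names all 10 genes, Gad1, Gad2, the 2 most abundant and the most changed called gene of each list, and the 3 genes most like Sst. Pcsk2, Tacr1, Cckbr, Sstr1, Sstr5, Cckar, Adcyap1, Ncald, Lhx6, Bdnf, Cldn5, Pecam1, Cdh5, Kcnj8 and Mog were chosen after their values were seen. A few genes selected by this rule are not reported here.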

Additional observations from a re-analysis of the deposited data

How the results depend on the processing

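With DESeq2, 5 of the 10 genes passed in place of 8. With a library left out, between 6 and 8 passed, between 4 and 5 passed when scaled to Gad1 and Gad2 (6 with all libraries), and between 84 and 93 of the other listed genes passed (95 with all libraries). With TMM and the other library scalings, Sst, Npy, Penk, Calb1 and Calb2 stayed lower and past the threshold, and Vip and Cck stayed short of it, in all 12 alternatives. Tac1 has no value where 10 counts per library were required. With the replicate block, 8 of the 10 genes passed, 6 when scaled to Gad1 and Gad2, and 94 of the other listed genes. The replicate numbers are not stated to pair the libraries, and the deviations of the same-numbered libraries were uncorrelated across genes (r = 1.3e-05). Slc32a1 was itself at -0.58 relative to Gad1 and Gad2, so as the only reference it raised every gene by about that much. By this shift the sign turned for Penk (0.52), which passed, and for Calb1 (0.33), Calb2 (0.026), Pvalb (0.018) and Scgn (0.0020), which did not. With a library left out, Penk lay between -0.247 and 0.127 when scaled to Gad1 and Gad2, turning without replicate 2 with FGF2. Cpe, which had not passed, lay between -0.022 and 0.100 with a library left out and turned without replicate 2 with FGF2. Over all single genes reported and their alternatives, 750 values held both their sign and their call, 31 lost the call, 2 gained one and 7 turned. The cause of the turns with a library left out was not tested. The depth limits Tac1, Vip, Pvalb and Scgn, which had at most 55 counts in a library.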
